A study of Mus musculus with 81 samples.

Results

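The inositol phosphate kinases are the enzymes that add phosphates to the inositol trisphosphate IP3 and to the molecules made from it. The group described here has 10 members, chosen by gene name: the IP3 3-kinases Itpka, Itpkb and Itpkc; the kinases that lead to inositol hexakisphosphate (IP6), Itpk1, Ipmk and Ippk; the IP6 kinases Ip6k1 and Ip6k2; and the diphosphoinositol kinases Ppip5k1 and Ppip5k2. The choice was made with earlier results of these data known. All 10 matched 1 gene identifier each among the 57010 in the files. They were measured by RNA-seq in CA1 pyramidal neurons (CA1 PNs), CA3 pyramidal neurons (CA3 PNs) and dentate gyrus granule cells (DGCs), captured by laser microdissection in groups of neurons from Nissl-stained sections of rostral hippocampus. The mice were Ts65Dn males (Ts), a Down syndrome model that carries an extra copy of segments of chromosomes 16 and 17, and disomic mice (2N), at about 6 months of age. Their dams ate a choline normal diet (ChN, 1.1 g/kg choline chloride) or a choline supplemented diet (ChP, 5.0 g/kg) through gestation and until weaning, after which all offspring ate the normal diet. There were 81 libraries from 28 mice (6 2N ChN, 6 Ts ChN, 7 2N ChP and 9 Ts ChP), with 5 to 9 libraries in each of the 12 groups. The triplicated segment of chromosome 17 has no counterpart on human chromosome 21. Maternal diet reached the offspring through the dam until weaning, so diets are compared in adults, months after weaning.

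IP3 is made when phospholipase C, activated by Gq-coupled receptors, cuts a membrane phosphoinositide, and it opens calcium channels (the IP3 receptors) in the endoplasmic reticulum. IP3 3-kinases end that signal by turning IP3 into an inositol tetrakisphosphate. Itpka also binds and bundles actin and is known for its place in the dendritic spines of hippocampal neurons. Ipmk and Itpk1 carry the pathway on to the pentakisphosphate, Ippk makes IP6 from it, and the IP6 kinases and Ppip5k enzymes add further phosphates to form the inositol pyrophosphates, energy-rich molecules linked to phosphate balance and vesicle traffic.

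None of the members lies in the triplicated segments. In GRCm39, the build of the files, Itpka (ENSMUSG00000027296) lies on chromosome 2 from 119572740 to 119591984 and Ppip5k1 (ENSMUSG00000033526) on the same chromosome from 121141005 to 121189004. Chromosome 1 holds Itpkb (ENSMUSG00000038855) from 180158036 to 180252367 and Ppip5k2 (ENSMUSG00000040648) from 97630717 to 97698401. Both IP6 kinases are on chromosome 9, Ip6k1 (ENSMUSG00000032594) from 107879258 to 107925989 and Ip6k2 (ENSMUSG00000032599) from 108648036 to 108684638. Itpkc (ENSMUSG00000003752) is on chromosome 7 from 26904505 to 26928093, Ipmk (ENSMUSG00000060733) on chromosome 10 from 71183532 to 71269360, Itpk1 (ENSMUSG00000057963) on chromosome 12 from 102534840 to 102671638 and Ippk (ENSMUSG00000021385) on chromosome 13 from 49574669 to 49618055.

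The promoters shown are those of the 3 members whose levels differed most between the neuron populations. Each runs from 250 bases before to 50 bases after the RefSeq gene start in GRCm38.p6, an older build than that of the files. The motif GGGCGG, or CCGCCC on the other strand, is in capitals. The Itpkb window (chr1:180330226-180330525, plus strand) held no copy and had 39.3% G and C, the Itpka window (chr2:119742087-119742386, plus strand) held 4 copies and 73.7%, and the Itpk1 window (chr12:102704820-102705119, minus strand) held 10 copies, some overlapping, and 85.3%.
Itpkb: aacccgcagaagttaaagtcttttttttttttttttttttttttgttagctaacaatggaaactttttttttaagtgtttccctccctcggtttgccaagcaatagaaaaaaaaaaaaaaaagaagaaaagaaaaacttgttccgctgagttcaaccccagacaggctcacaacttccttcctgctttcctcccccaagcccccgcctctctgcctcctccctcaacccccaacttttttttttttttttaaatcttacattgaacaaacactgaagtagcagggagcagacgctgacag
Itpka: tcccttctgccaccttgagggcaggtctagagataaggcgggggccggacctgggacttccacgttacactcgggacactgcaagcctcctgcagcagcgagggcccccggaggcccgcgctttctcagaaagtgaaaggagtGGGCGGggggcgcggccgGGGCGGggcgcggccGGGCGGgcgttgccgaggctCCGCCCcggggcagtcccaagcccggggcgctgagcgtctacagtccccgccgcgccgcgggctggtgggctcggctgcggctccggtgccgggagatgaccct
Itpk1: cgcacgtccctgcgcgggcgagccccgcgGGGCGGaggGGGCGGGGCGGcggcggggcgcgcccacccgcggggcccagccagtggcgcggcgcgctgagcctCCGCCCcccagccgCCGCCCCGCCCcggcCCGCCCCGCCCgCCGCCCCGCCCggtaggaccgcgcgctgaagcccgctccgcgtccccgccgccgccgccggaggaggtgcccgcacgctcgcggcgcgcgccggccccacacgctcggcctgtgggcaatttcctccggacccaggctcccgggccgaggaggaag

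RefSeq promoters were found for all 10 members, 12 windows in all. By gene, windows of 8 of the 10 held GGGCGG on either strand, the exceptions being Itpkb and Ppip5k1. By window, 10 of the 12 held the motif GGGCGG. Of all 32851 promoters of the same length, 35.7% held it, and their median G and C content was 52.7%. TATAAA (either strand) stood in 13.6% of all promoters and in that of no member, CCAAT in 37.4% and in those of Ip6k1 and Ip6k2, and TGACG in 20.8% and in those of Itpkc and Ip6k1. These matches describe letters in a window and were not tested as binding sites.

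Some libraries went against their labels, and the results they change are given with and without them. Of the 27 CA1 PN libraries, 10 were rich in markers of CA2 neurons (Amigo2, Rgs14, Necab2, Map3k15, Cacng5, Ccdc3): the mean over this list was 5.58 to 7.83 log2 CPM, against 1.80 to 3.17 in the other 17, and the summed level was 422 to 1773 CPM against 71.0 to 134 CPM. The list of CA1 markers (Wfs1, Fibcd1, Pou3f1, Man1a, Spink8, Mpped1) averaged 2.96 to 7.15 log2 CPM in these 10 libraries and 7.51 to 7.98 in the other 17. In the CA1 PN libraries of mice 17-21 and 16-272 it was 2.98 and 2.96, near the 2.38 to 2.94 of CA3 PNs. The CA3 markers (Cpne4, Bok, Iyd, Grik4, Nectin3) averaged 7.06 to 7.46 in CA3 PNs, and the dentate markers 7.94 to 8.37 in DGCs. The 10 libraries fell into all 4 groups of mice, 2 of 2N ChN, 1 of Ts ChN, 3 of 2N ChP and 4 of Ts ChP. Mouse 15-145 carries the label 2N on its CA1 PN and DGC libraries and Ts on that of its CA3 PNs, which was grouped here as 2N. App, a triplicated gene, was at 2439 CPM in that CA3 PN library, the upper end of its group (2064 to 2439 CPM) and below the 3054 to 3486 CPM of Ts ChN mice. The library labelled 2N from the CA1 PNs of mouse 17-154, itself among the 10, had App at 3203 CPM, above the 2626 to 2961 CPM of Ts ChN mice. The CA3 PN library of the same mouse, also labelled 2N, was within the 2064 to 2439 CPM of its group, below the Ts ChN mice. The CA3 PN library of mouse 15-140 (Ts ChP) had the highest dentate list of its population, 4.40 log2 CPM against a CA3 PN median of 2.20. Oligodendrocyte markers summed to a median of 336 CPM in CA3 PNs, 162 CPM in CA1 PNs and 184 CPM in DGCs, and astrocyte markers to 198, 148 and 169 CPM. Their part in the CA3 PN results was not tested. Totals ran from 358355 to 4744036 expected counts, the lowest being the DGC library of mouse 16-273. The RNA came from many captured cells, so fewer cells of a type and less RNA per cell cannot be told apart.

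Levels of different genes can be set beside each other only per length, in the TPM that the authors deposited. In CA1 PNs the highest median was that of Itpka, 130 TPM (27 libraries), followed by Ip6k2 at 98.0 TPM, although Itpka exceeded Ip6k2 in only 18 of the 27. In the 10 libraries rich in CA2 markers the order was the opposite, with Itpka at 63.3 and Ip6k2 at 105.7 TPM (Itpka above in 1 of 10), and in the other 17 Itpka stood at 141.6 and Ip6k2 at 98.0 TPM (17 of 17). Ip6k2 led in CA3 PNs with 150 TPM (26 libraries) and in DGCs with 166 TPM (28 libraries), where it was above Itpka in 28 of 28. In the same order of populations, Ip6k1 was at 55.7, 92.1 and 68.2 TPM and Ppip5k1 at 29.1, 50.3 and 35.0 TPM, so that these 3 kinases of the pyrophosphate branch were among the 4 highest members in each population. TPM is read here for the order of genes within a population, as it can part from CPM between populations and libraries. The CPM medians of Ip6k1 were 182, 185 and 196 in the same populations. Over the CA1 PN libraries its TPM ran from 12.3 to 165 and its CPM from 148 to 225. Differences between populations are therefore given in CPM below.

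The lower part of the order differed by population. Itpk1 followed Ppip5k1 in CA3 PNs at 42.3 TPM and was level with Itpka at 38.9 TPM, each being the higher in 13 of 26 libraries, whereas it stood at 10.5 TPM in CA1 PNs and 13.1 TPM in DGCs. Ippk, the kinase that makes IP6, was above Ipmk in 27 of 28 DGC libraries (medians 26.8 and 20.5 TPM) and below it in 26 of 26 CA3 PN libraries (10.2 and 21.6 TPM), while in CA1 PNs Ipmk was the higher in 14 of 27 (13.4 and 12.8 TPM). Other neighbours that were not separated were Itpka and Ip6k1 in DGCs (Itpka higher in 16 of 28) and Itpkb and Ppip5k2 in DGCs (Itpkb higher in 14 of 28, medians 9.19 and 8.68 TPM). Itpkc was low throughout, at 2.40, 2.67 and 2.58 TPM, and Itpkb lowest of all in CA3 PNs at 1.80 TPM.

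Among the 3 IP3 3-kinases, Itpka held most of the transcript by TPM in every library. Its share of their sum had a median of 93.1% in CA1 PNs (84.4 to 96.5%), 89.2% in CA3 PNs (81.4 to 94.3%) and 86.7% in DGCs (83.3 to 91.2%). Itpkb had a median share of 10.5% in DGCs (7.56 to 14.0%), against 4.47% in CA1 PNs (1.85 to 8.83%) and 4.07% in CA3 PNs (1.94 to 7.06%). The share of Itpkc was largest in CA3 PNs, 6.45%, followed by 3.00% in DGCs and 2.36% in CA1 PNs. Ip6k3, an IP6 kinase outside the 10, had no count in 78 of 81 libraries and 1 count in each of the others, and the 3 counts taken as the detection floor correspond to 0.63 to 8.37 CPM in these libraries.

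**Figure D1:**
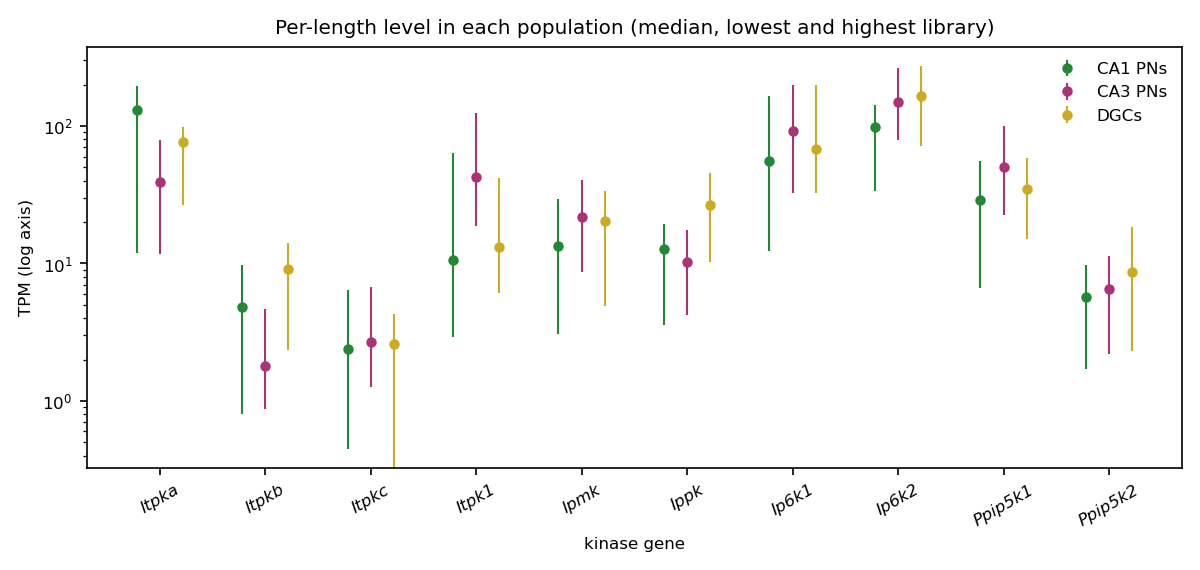
Levels per length (TPM, log axis) of the 10 kinases in CA1 PNs, CA3 PNs and DGCs, as the median over the libraries of a population with the lowest and highest library. Itpka leads in CA1 PNs, though not in the 10 libraries rich in CA2 markers (63.3 TPM against 105.7 TPM for Ip6k2), and Ip6k2 in CA3 PNs and DGCs; the lowest DGC value of Itpkc is 0 and falls below the axis.

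The populations were compared within each of the 4 groups of mice, with the mouse as a block, because the same animals gave the 3 populations. Values are CPM scaled with TMM, differences are log2 fold changes (LFC) with their SE, and a gene was called at a Benjamini-Hochberg adjusted p under 0.05 in edgeR's quasi-likelihood test over all genes. Between CA1 and CA3 PNs, 6 of the 10 members passed in 2N ChN mice, where 23.1% of all tested genes passed. Of the 6, CA1 PNs had the higher level for 3 and the lower for 3 (all genes: 10.9% and 12.2%). In 2N ChP, Ts ChN and Ts ChP mice it was 5, 6 and 6 members, where 24.6%, 25.7% and 25.5% of all genes passed. Between CA1 PNs and DGCs, 4 members passed in 2N ChN mice, a share close to the 33.9% of all genes, 1 with CA1 PNs above and 3 with CA1 PNs below (all genes: 17.3% and 16.6%), and 4, 3 and 4 in 2N ChP, Ts ChN and Ts ChP mice, against 33.0%, 34.6% and 39.3%. Between CA3 PNs and DGCs, 6 members passed in 2N ChN mice beside 43.3% of all genes, 2 with CA3 PNs above and 4 with CA3 PNs below (all genes: 21.8% and 21.5%), and 7, 6 and 6 in the other groups beside 42.0%, 45.2% and 43.4%. In 2N ChN mice the median absolute LFC of the members was 0.46, 0.45 and 0.64 in the 3 comparisons, and that of all genes 0.37, 0.50 and 0.57. The share of members called was thus above the background in all 4 groups of mice between CA1 and CA3 PNs and between CA3 PNs and DGCs. Between CA1 PNs and DGCs it was close to the background. The members were chosen with earlier results of these data known. The background takes in all genes above 0.1 CPM in 10 libraries, whatever their level. Whether the members as a group differ from genes of like level was not tested.

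Itpka, the actin-binding IP3 3-kinase, was highest in CA1 PNs. In 2N ChN mice its level ran from 53.8 to 324 CPM in the 6 CA1 PN libraries (median 251), from 47.9 to 64.6 CPM in CA3 PNs (median 57.0) and from 92.4 to 130 CPM in DGCs (median 106). The 5 CA1 PN libraries of Ts ChN mice were at 136, 243, 250, 261 and 269 CPM. Each of the groups has 1 low CA1 PN library, that of mouse 17-21 at 53.8 CPM, which lay inside the CA3 PN range, and that of mouse 16-357 at 136 CPM, and both are among the libraries rich in CA2 markers. The LFC between CA1 and CA3 PNs was 1.94 (SE 0.31; adjusted p = 0.000832, edgeR) in 2N ChN mice and 1.67 to 1.94 over the 4 groups of mice, called in all 4. Against DGCs it was 0.96 (SE 0.30; adjusted p = 0.0298, edgeR), and 0.70 to 1.04 over the 4 groups, called in all 4, although scaling by library totals ended the call in 3 of them (adjusted p = 0.0671 in 2N ChN, 0.0916 in 2N ChP and 0.0768 in Ts ChP mice). CA3 PNs were lower than DGCs by an LFC of -0.98 (SE 0.31; adjusted p = 0.0268, edgeR), and -1.03 to -0.62 over the 4 groups, again called in all 4. Within mice, CA1 PNs exceeded CA3 PNs in 24 of 25 (median ratio 3.72) and DGCs in 23 of 27 (median ratio 2.14), and CA3 PNs exceeded DGCs in 0 of 26.

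The level of Itpka moved with the CA2 markers. In the 10 CA1 PN libraries rich in them it ran from 40.8 to 199 CPM (median 126), and in the other 17 from 218 to 397 CPM (median 267), with no overlap. Without the 10 libraries, the LFC of Itpka between CA1 and CA3 PNs was 2.34, 1.80, 2.07 and 2.04 in 2N ChN, Ts ChN, 2N ChP and Ts ChP mice, and between CA1 PNs and DGCs 1.36, 1.20, 1.07 and 1.14, all called, so the order of the populations did not rest on these libraries. CA1 PNs were then above both other populations in 17 of 17 mice. The calls against DGCs were less steady in 2N ChN than in Ts ChN mice, the groups in which single mice were left out. For CA1 PNs, leaving out any of 5 of the 6 mice ended the call (LFC 0.83 to 1.20 over the 6, adjusted p up to 0.108), while without mouse 17-21 the LFC was 1.20 (adjusted p = 8.85e-10, edgeR). For CA3 PNs, 4 of the 6 omissions ended it (LFC -1.09 to -0.89, adjusted p up to 0.075), as did leaving out the CA3 PN library of mouse 15-145 alone (LFC -0.84; adjusted p = 0.0688, edgeR).

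**Figure D2:**
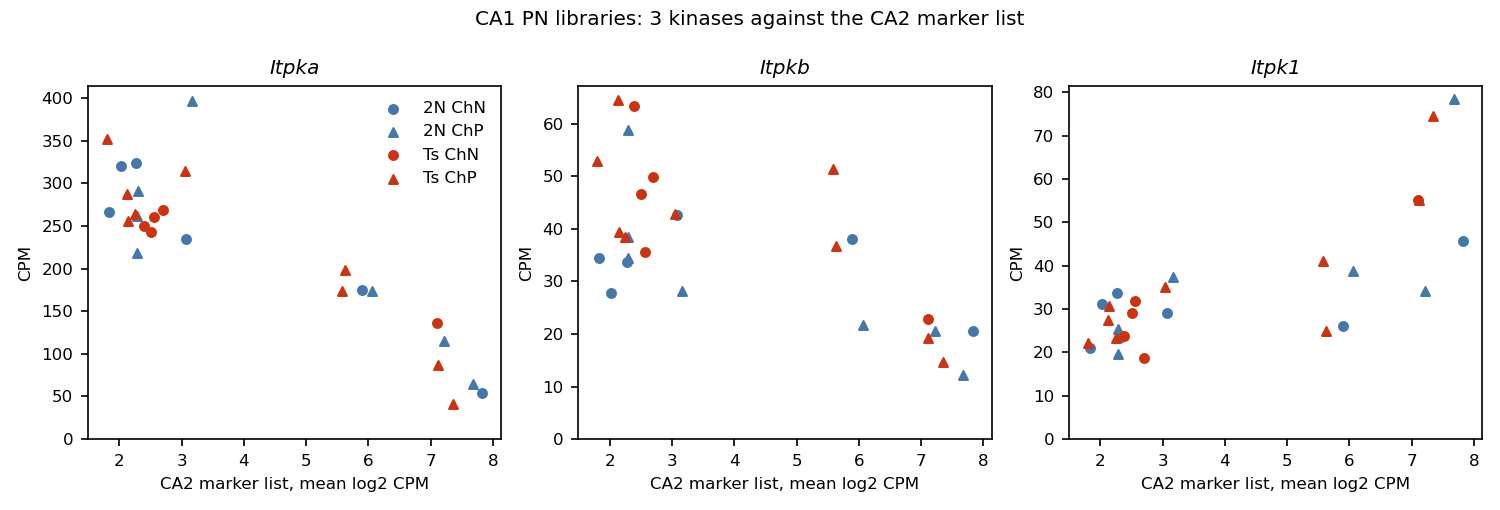
Level of Itpka, Itpkb and Itpk1 (CPM) in the 27 CA1 PN libraries against the mean log2 CPM of the CA2 marker list. The 10 libraries rich in CA2 markers hold Itpka at 40.8 to 199 CPM and the other 17 at 218 to 397 CPM, while Itpk1 reaches 78.5 CPM in the first set and 37.4 CPM in the other.

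Itpkb, the IP3 3-kinase with the widest range over the populations, was highest in DGCs and lowest in CA3 PNs. In 2N ChN mice it was at 38.9 to 62.6 CPM in DGCs (median 54.3), 20.6 to 42.6 CPM in CA1 PNs (median 34.2) and 8.74 to 15.4 CPM in CA3 PNs (median 10.6). The CA3 PN values did not overlap with those of either other population. Ts ChN mice had 22.8, 35.6, 46.6, 49.8 and 63.4 CPM in CA1 PNs, the lowest again in mouse 16-357, and a median of 40.1 CPM in DGCs. The LFC between CA3 PNs and DGCs in 2N ChN mice was -2.18 (SE 0.19; adjusted p = 1.69e-12, edgeR), with -2.56 to -1.86 over the 4 groups of mice, all called and with no overlap in any. CA1 PNs exceeded CA3 PNs by an LFC of 1.49 (SE 0.20; adjusted p = 1.68e-07, edgeR), called in all 4 groups (1.49 to 1.86) and seen in 25 of 25 mice. CA3 PNs were below DGCs in 26 of 26 mice, with a median ratio of 0.212.

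Itpkb was called lower in CA1 PNs than in DGCs in 2 of the 4 groups of mice. The LFC was negative in all 4, and CA1 PNs were the lower in 21 of 27 mice (median ratio 0.747). The LFC was -0.69 (SE 0.17; adjusted p = 0.00151, edgeR) in 2N ChN and -0.94 in 2N ChP mice, both called, but -0.05 (adjusted p = 0.893, edgeR) in Ts ChN and -0.31 (adjusted p = 0.312, edgeR) in Ts ChP mice. On the normal diet the difference between the genotype effects in CA1 PNs and in DGCs was 0.63 (SE 0.26; unadjusted p = 0.0194, adjusted p = 1.0, edgeR) and did not pass, so the genotypes are not shown to differ in this contrast. Itpkb was also lower in the CA1 PN libraries rich in CA2 markers (12.3 to 51.5 CPM, median 21.1) than in the others (27.9 to 64.5 CPM, median 39.4), with overlap. Without them the LFC of CA1 PNs against DGCs was -0.64 (adjusted p = 0.00724, edgeR) in 2N ChN and -0.54 (adjusted p = 0.0332, edgeR) in 2N ChP mice, and 0.08 and -0.03 in Ts ChN and Ts ChP mice.

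Over all 81 libraries, the 5 genes whose log2 CPM followed Itpkb most closely among 20492 genes were Efnb3 (r = 0.911), Doc2b (0.909), Kcnj9 (0.904), Dgki (0.903) and Calb1 (0.902), with Pearson's r as the measure. Efnb3 encodes an ephrin ligand, Doc2b a calcium sensor of vesicle release, Kcnj9 a GIRK potassium channel subunit, Dgki a diacylglycerol kinase and Calb1 the calcium buffer calbindin. The libraries share mice and fall into 3 populations, so r is given as a description of a common pattern, low in CA3 PNs and high in DGCs.

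Itpkc, the least abundant IP3 3-kinase, was not called between any populations in any group of mice. Its 2N ChN values ran from 2.88 to 15.0 CPM in CA1 PNs, 5.36 to 14.7 CPM in CA3 PNs and 0.948 to 8.93 CPM in DGCs, and the ranges overlapped. Its counts were 0 to 42 per library, with 2 DGC libraries at 0. The LFC over the 4 groups of mice ran from -0.06 to 0.29 between CA1 and CA3 PNs, from 0.12 to 0.72 between CA1 PNs and DGCs and from -0.13 to 0.72 between CA3 PNs and DGCs.

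Itpk1, an inositol phosphate kinase of the route towards IP6, set CA3 PNs apart. In 2N ChN mice it was at 105 to 142 CPM in CA3 PNs (median 124), 21.1 to 45.8 CPM in CA1 PNs (median 30.1) and 21.9 to 41.5 CPM in DGCs (median 33.4). All CA3 PN libraries lay above all those of the other populations. In Ts ChN mice CA3 PNs were at 62.9 to 133 CPM (median 108) and the CA1 PN libraries at 18.7, 23.8, 29.0, 32.0 and 55.1 CPM, again without overlap and with the highest CA1 value in mouse 16-357. The LFC in 2N ChN mice was -1.99 (SE 0.16; adjusted p = 1.11e-12, edgeR) for CA1 against CA3 PNs and 1.91 (SE 0.16; adjusted p = 6.15e-13, edgeR) for CA3 PNs against DGCs. Over the 4 groups of mice the ranges were -1.99 to -1.57 and 1.65 to 1.91, all called and without overlap. CA3 PNs were the higher in 25 of 25 mice against CA1 PNs and in 26 of 26 against DGCs (median ratio 3.30). CA1 PNs and DGCs did not differ by the test in any group of mice, and CA1 PNs were higher in 14 of 27.

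Unlike Itpka and Itpkb, Itpk1 had the higher median in the CA1 PN libraries rich in CA2 markers, 24.9 to 78.5 CPM (median 43.4) against 18.7 to 37.4 CPM (median 27.4), with overlap. The same 10 libraries had CA3 markers at 4.06 to 6.71 log2 CPM, against 1.59 to 3.13 in the other 17. Without them the LFC of Itpk1 between CA1 and CA3 PNs was -2.12, -2.01, -1.84 and -1.90 in 2N ChN, Ts ChN, 2N ChP and Ts ChP mice.

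Ippk, which adds the last phosphate of IP6, was highest in DGCs and lowest in CA3 PNs. The levels in 2N ChN mice were 91.0 to 115 CPM in DGCs (median 98.7), 35.3 to 64.3 CPM in CA1 PNs (median 53.7) and 19.6 to 40.3 CPM in CA3 PNs (median 34.5). DGCs did not overlap with the pyramidal neurons, and the 2 pyramidal populations overlapped in part. The LFC was -1.72 (SE 0.15; adjusted p = 2.58e-12, edgeR) for CA3 PNs and -0.97 (SE 0.15; adjusted p = 1.21e-06, edgeR) for CA1 PNs against DGCs, and 0.74 (SE 0.16; adjusted p = 0.000363, edgeR) for CA1 against CA3 PNs. All of these were called in all 4 groups of mice, with ranges of -1.72 to -1.25, -0.97 to -0.72 and 0.40 to 0.74. DGCs were above CA1 PNs in 27 of 27 mice and above CA3 PNs in 26 of 26. The difference between CA1 and CA3 PNs was least secure in Ts ChN mice, where the 5 CA1 PN libraries were at 43.6, 44.0, 47.5, 61.4 and 64.5 CPM and CA3 PNs had at most 44.9 CPM. There it was lost without the library rich in CA2 markers (LFC 0.34; adjusted p = 0.073, edgeR) and when any of 4 mice was left out (LFC 0.36 to 0.47, adjusted p up to 0.0919). The median of Ippk was 55.8 CPM in the CA1 PN libraries rich in CA2 markers and 59.3 CPM in the others.

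Ipmk, the multikinase that works on several inositol phosphates, varied little. Its medians in 2N ChN mice were 56.9, 50.5 and 55.9 CPM in CA1 PNs, CA3 PNs and DGCs, with overlapping ranges of 30.9 to 71.6, 39.2 to 55.7 and 39.8 to 65.3 CPM. Of the 12 population comparisons 1 was called, CA1 against CA3 PNs in Ts ChP mice (LFC -0.36; adjusted p = 0.0184, edgeR). That call was lost without the CA3 PN library of mouse 15-140 (LFC -0.32; adjusted p = 0.0561, edgeR), the only member call that its omission changed in the CA3 PN comparisons of Ts ChP mice, and with library totals (LFC -0.28; adjusted p = 0.0721). Library totals gained calls against DGCs for CA1 PNs of 2N ChP (LFC -0.48; adjusted p = 0.0167) and Ts ChP mice (LFC -0.32; adjusted p = 0.0168). In the CA1 PN libraries rich in CA2 markers Ipmk was at 30.9 to 54.1 CPM (median 41.7), and in the others at 37.7 to 75.3 CPM (median 54.9).

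**Figure D3:**
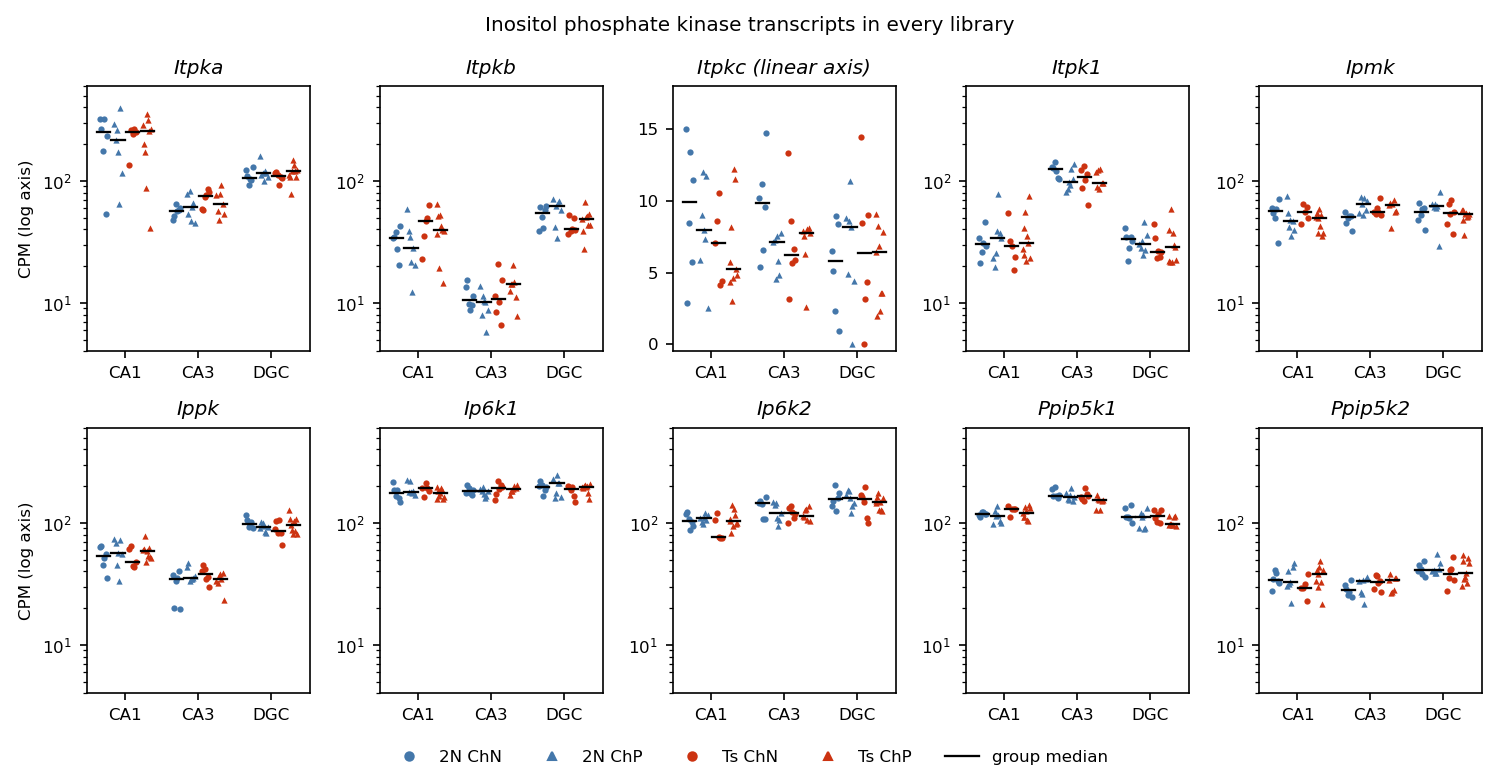
Level (CPM) of each of the 10 kinases in all 81 libraries, by population, genotype and diet, on a log axis except for Itpkc, whose axis is linear because 2 DGC libraries are at 0. Black lines are group medians. Itpk1 is highest in CA3 PNs (62.9 to 142 CPM), Itpkb lowest there (5.76 to 20.8 CPM) and Ippk highest in DGCs (65.4 to 129 CPM). Over all libraries these ranges overlap in part with CA1 PNs, where Itpk1 reaches 78.5 CPM, Itpkb falls to 12.3 CPM and Ippk reaches 78.3 CPM. Ip6k1 overlaps between all groups.

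The IP6 kinases, which make the first inositol pyrophosphate, differed from each other. Ip6k1 was at 148 to 216 CPM in CA1 PNs, 171 to 204 CPM in CA3 PNs and 166 to 221 CPM in DGCs of 2N ChN mice, and none of its 12 population comparisons passed (LFC -0.18 to 0.06). Scaled by library totals, which moved the median LFC of all genes to between -0.27 and -0.12 in the comparisons with DGCs, Ip6k1 passed in 5 of the 8 with LFC -0.40 to -0.27, below DGCs in each. For Ip6k2 the 2N ChN medians were 104 CPM in CA1 PNs (86.9 to 122), 145 CPM in CA3 PNs (107 to 162) and 156 CPM in DGCs (126 to 204). CA1 PNs thus had the lowest levels, below and not overlapping those of DGCs in this group. The LFC against DGCs was -0.63 (SE 0.12; adjusted p = 5.01e-05, edgeR) and -0.77 to -0.48 over the 4 groups of mice, all called, and DGCs were higher in 26 of 27 mice. Against CA3 PNs it was -0.36 (SE 0.12; adjusted p = 0.0209, edgeR), but only 2 of 4 groups passed (LFC -0.47 to -0.13). With library totals the 2N ChN call was lost (LFC -0.30; adjusted p = 0.0589, edgeR). It was also lost in 2N ChN mice without mouse 17-154, 17-172 or 17-56 (LFC -0.41 to -0.28 over the 6 omissions, adjusted p up to 0.127), and in Ts ChN mice without mouse 17-153 (LFC -0.38; adjusted p = 0.0625, edgeR). The call was gained in 2N ChP mice without the libraries rich in CA2 markers (LFC -0.36; adjusted p = 0.0146, edgeR). Between CA3 PNs and DGCs, Ip6k2 passed in 3 of 4 groups (LFC -0.37 to -0.26), of which Ts ChN was lost without mouse 16-490 or 17-157 (LFC -0.39 to -0.21 over the omissions, adjusted p up to 0.17), while 2N ChN was gained without mouse 15-145 (LFC -0.32; adjusted p = 0.0412, edgeR).

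The Ppip5k enzymes make the second kind of pyrophosphate group. Ppip5k1 was highest in CA3 PNs: in 2N ChN mice it was at 161 to 198 CPM there (median 168), 111 to 123 CPM in CA1 PNs (median 118) and 101 to 140 CPM in DGCs (median 112). The CA3 PN values were above all others. The LFC was -0.56 (SE 0.11; adjusted p = 0.000115, edgeR) for CA1 against CA3 PNs, with -0.57 to -0.33 over the 4 groups, and 0.55 (SE 0.11; adjusted p = 6.68e-05, edgeR) for CA3 PNs against DGCs, with 0.53 to 0.60, all called. CA3 PNs were the higher in 25 of 25 mice and 26 of 26 mice, by a median ratio of 1.47 over DGCs. This is a smaller difference than that of Itpk1, in the same direction in every mouse.

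Ppip5k2 was lower in CA3 PNs (24.5 to 33.7 CPM, median 28.1) than in DGCs (36.0 to 48.3 CPM, median 40.8) of 2N ChN mice, without overlap. The LFC was -0.56 (SE 0.16; adjusted p = 0.00361, edgeR), and 2 of 4 groups of mice passed (-0.56 to -0.26). Its CA1 PN values were in between, at 27.5 to 40.8 CPM, and were not called against either population in any group, except against DGCs in Ts ChN mice without the library rich in CA2 markers (LFC -0.48; adjusted p = 0.0288, edgeR) and, with library totals, in all 4 groups (LFC -0.50 to -0.38, adjusted p up to 0.0434). Ppip5k1 in CA1 PNs against DGCs was called in Ts ChP mice alone (LFC 0.23; adjusted p = 0.0289, edgeR), which was lost without the libraries rich in CA2 markers (LFC 0.25; adjusted p = 0.0549, edgeR) and with library totals (LFC 0.07; adjusted p = 0.567).

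**Figure D4:**
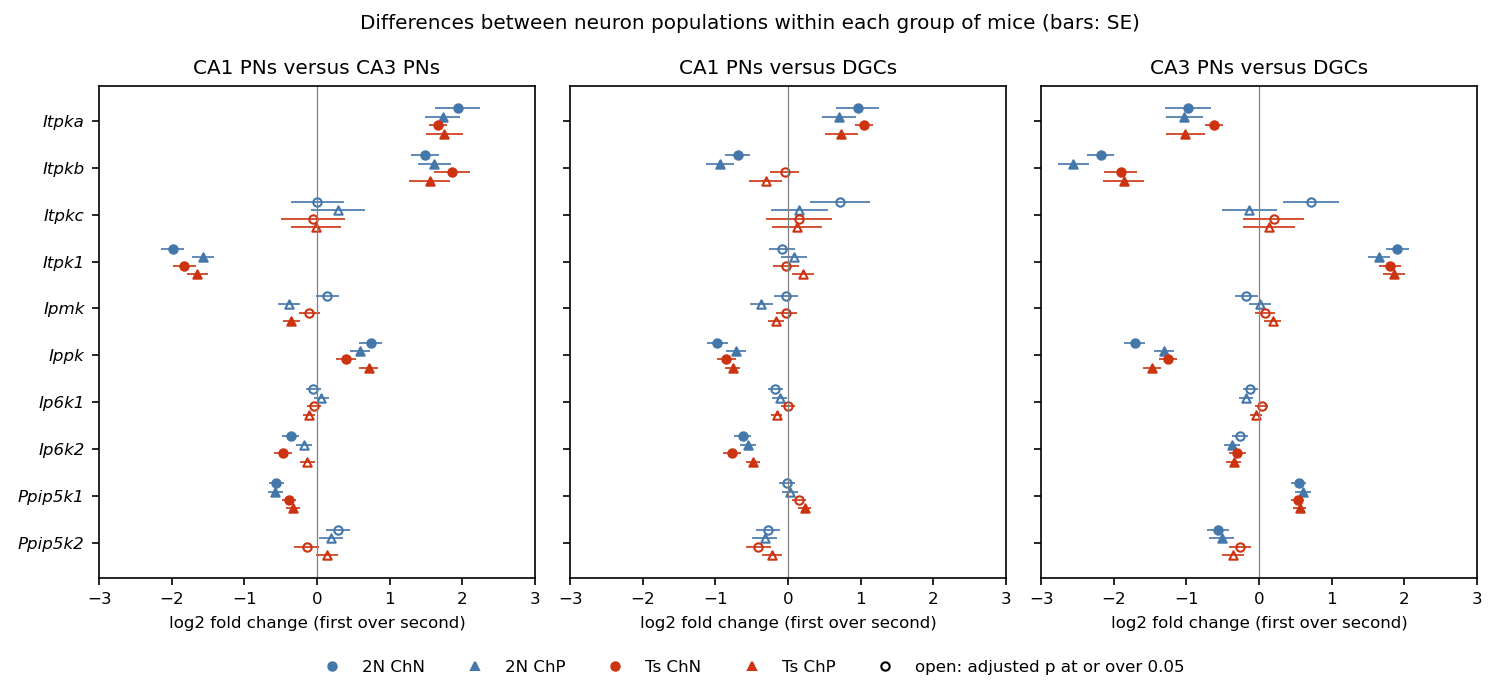
LFC of the 10 kinases between the populations in each of the 4 groups of mice, as points on a log2 scale with bars of 1 SE and open symbols for values that were not called. Itpk1 lies from -1.99 to -1.57 for CA1 against CA3 PNs and from 1.65 to 1.91 for CA3 PNs against DGCs, and Ip6k1 lies from -0.18 to 0.06 throughout with TMM scaling.

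The remaining lists of the pathway, 47 genes in 5 lists, give the setting of these differences in 2N ChN mice, beside 23.1%, 33.9% and 43.3% of all genes called in the same 3 comparisons. Of 14 genes for Gq proteins and phospholipases C, 4 were called for CA1 against CA3 PNs (2 higher and 2 lower in the first), 8 for CA1 PNs against DGCs (6 and 2) and 10 for CA3 PNs against DGCs (7 and 3). Of 19 inositol phosphate phosphatases, which remove phosphates, the counts were 10 (4 and 6), 7 (6 and 1) and 9 (6 and 3). Of the 3 IP3 receptors, 1 was called in each comparison of CA1 PNs and none between CA3 PNs and DGCs. Of 4 diphosphoinositol phosphatases 1, 0 and 0 were called, and of 6 tested genes of inositol supply 3, 4 and 2.

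Named by the size of their LFC, the leading genes between CA1 and CA3 PNs were the phospholipases Plch1 and Plcd1 and Cds1, which makes the lipid precursor CDP-diacylglycerol. Plch1 was at 1.15 to 38.4 CPM in CA1 PNs and at 0.546 to 1.63 CPM in CA3 PNs (adjusted p = 1.33e-08, edgeR), and Plcd1 at 0 to 1.92 and 3.35 to 16.1 CPM (adjusted p = 0.000381). Counts in the lower population were too few to size either difference. Cds1 was at 19.5 to 126 CPM in CA1 PNs and 4.90 to 15.4 CPM in CA3 PNs, an LFC of 3.34 (adjusted p = 6.01e-05, edgeR), and 3.65 (adjusted p = 1.77e-36) without the libraries rich in CA2 markers.

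Against DGCs, the phosphatase Synj2 led in both pyramidal populations. It was at 79.0 to 151 CPM in CA1 PNs, 62.3 to 113 CPM in CA3 PNs and 0.783 to 3.89 CPM in DGCs (adjusted p = 4.17e-23 and 2.4e-22, edgeR), a DGC level too low to size the difference. Plch2 was at 73.7 to 442 CPM in CA1 PNs and 7.59 to 11.7 CPM in DGCs, an LFC of 4.02 (adjusted p = 0.000166, edgeR), which was 3.12 (adjusted p = 8.62e-28) without the libraries rich in CA2 markers. Unlike Itpka it was higher in those libraries (183 to 472 CPM) than in the other 17 (56.6 to 131 CPM). The phospholipase Plcd3 was at 2.19 to 6.51 CPM in CA3 PNs and 0 to 1.62 CPM in DGCs (adjusted p = 0.00454, edgeR). Plcg2 was at 0 to 1.15 CPM in CA1 PNs, 0 to 1.63 CPM in CA3 PNs and 3.15 to 11.5 CPM in DGCs, and was called in both comparisons (adjusted p = 2.89e-05 and 2.46e-05, edgeR). For Plcd3 and Plcg2 too, counts were too low on the lower side to size the difference.

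Among the IP3 receptors, Itpr1, named here after its values were seen, was at 129 to 1091 CPM in CA1 PNs (median 967), 310 to 387 CPM in CA3 PNs (median 360) and 314 to 459 CPM in DGCs (median 411). The LFC was 1.09 (SE 0.32; adjusted p = 0.0298, edgeR) for CA1 against CA3 PNs and 0.90 (SE 0.31; adjusted p = 0.0491) against DGCs. The lowest CA1 PN value of Itpr1 was below the range of the other populations. As with Itpka, the 10 libraries rich in CA2 markers (129 to 817 CPM) did not overlap with the other 17 (899.6 to 1219 CPM). Without the 10 the LFC of Itpr1 was 1.44 (adjusted p = 1.93e-35, edgeR) and 1.26 (adjusted p = 2.72e-30), while without the library of mouse 17-154 alone both calls were lost (LFC 1.07, adjusted p = 0.067, and 0.90, adjusted p = 0.0902).

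The comparison of Ts with 2N mice asks whether trisomy moved the kinases. No member was called in any of the 6 genotype comparisons, in which 0.00814% (CA1 PNs ChN), 0.662% (CA3 PNs ChN), 0.588% (DGCs ChN), 0.049% (CA1 PNs ChP), 0.249% (CA3 PNs ChP) and 0.445% (DGCs ChP) of all genes were called. None was called between the diets either, where the share of all genes was 0.00731% in CA3 PNs of 2N mice and 0% in the other 5 comparisons. Of these 120 member tests in 12 comparisons, 6 (5.0%) had an unadjusted p under 0.05 in edgeR, and the smallest adjusted p was 0.15. Among all genes, the share with an unadjusted p under 0.05 was 3.77%, 9.2% and 8.5% between genotypes in CA1 PNs, CA3 PNs and DGCs on the normal diet and 3.6%, 4.99% and 7.6% on the supplemented diet. Between diets it was 2.24%, 4.08% and 5.52% in 2N mice and 3.26%, 4.9% and 3.94% in Ts mice. In no comparison were the values of a member's groups free of overlap.

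The largest of these by p was Itpka in CA3 PNs on the normal diet, at 47.9 to 64.6 CPM (median 57.0) in 2N and 57.4 to 85.3 CPM (median 75.5) in Ts mice. The groups overlapped, and the LFC of 0.39 (SE 0.12; unadjusted p = 0.0019, adjusted p = 0.15, edgeR) did not pass. It was 0.32 (adjusted p = 0.374) without the CA3 PN library of mouse 15-145 and 0.22 (adjusted p = 0.833) with that library taken as Ts. In CA1 PNs on the normal diet the LFC of Itpka was -0.003 and -0.19 without the libraries rich in CA2 markers.

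Itpkb was at 38.9 to 62.6 CPM in DGCs of 2N ChN and 36.8 to 52.4 CPM in those of Ts ChN mice (medians 54.3 and 40.1), an LFC of -0.29 (SE 0.14; unadjusted p = 0.0427, adjusted p = 0.568, edgeR). In CA3 PNs of ChP mice it was at 5.76 to 13.7 CPM in 2N and 7.76 to 20.3 CPM in Ts mice, an LFC of 0.49 (SE 0.24; unadjusted p = 0.0444, adjusted p = 0.999, edgeR). These values come from different diets, and neither passed. Itpkb had an LFC of 0.07 (SE 0.26; unadjusted p = 0.801, edgeR) in CA3 PNs on the normal diet. In DGCs on the supplemented diet its LFC was -0.27 (SE 0.15; unadjusted p = 0.0716, edgeR). The sign thus differed between CA3 PNs and DGCs on each diet, with no value called. Ipmk in DGCs of ChP mice had an LFC of -0.29 (SE 0.13; unadjusted p = 0.0299, adjusted p = 0.558, edgeR).

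Between the diets, Ipmk in CA3 PNs of 2N mice was at 39.2 to 55.7 CPM on the normal and 52.7 to 73.4 CPM on the supplemented diet (medians 50.5 and 64.6), an LFC of 0.35 (SE 0.12; unadjusted p = 0.00746, adjusted p = 0.998, edgeR). Itpk1 in the same libraries was at 105 to 142 and 80.96 to 138 CPM, an LFC of -0.27 (SE 0.11; unadjusted p = 0.0247, adjusted p = 0.998, edgeR). Both groups overlapped for each gene.

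How large a genotype or diet effect these data could leave unseen differed by gene. Over the 12 comparisons the LFC of Ip6k1 ran from -0.12 to 0.10, with approximate 95% intervals that reached from -0.30 to 0.34, and that of Ppip5k1 from -0.16 to 0.10, with intervals from -0.34 to 0.31. For Itpka the intervals reached from -0.94 to 0.84, for Itpkb from -0.74 to 1.003 and for Itpkc, which had the fewest counts, from -1.18 to 1.39. The interaction of genotype and diet was tested in each population, and the difference in genotype effect between each pair of populations on the normal diet. Of these 60 member tests 0 were called, 2 had an unadjusted p under 0.05 and the smallest adjusted p was 0.996 (edgeR), while of all genes 0.0224% were called in the difference between CA3 PNs and DGCs and 0% in the other 5. Unadjusted p were under 0.05 for 3.22%, 4.87% and 3.97% of all genes in the interactions in CA1 PNs, CA3 PNs and DGCs, and for 3.66% (CA1 against CA3 PNs), 4.9% (CA1 PNs against DGCs) and 4.33% (CA3 PNs against DGCs) in the differences. Beside Itpkb, given above, the other was Ippk between CA3 PNs and DGCs (0.44, SE 0.19; unadjusted p = 0.0251, adjusted p = 1.0, edgeR).

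**Figure D5:**
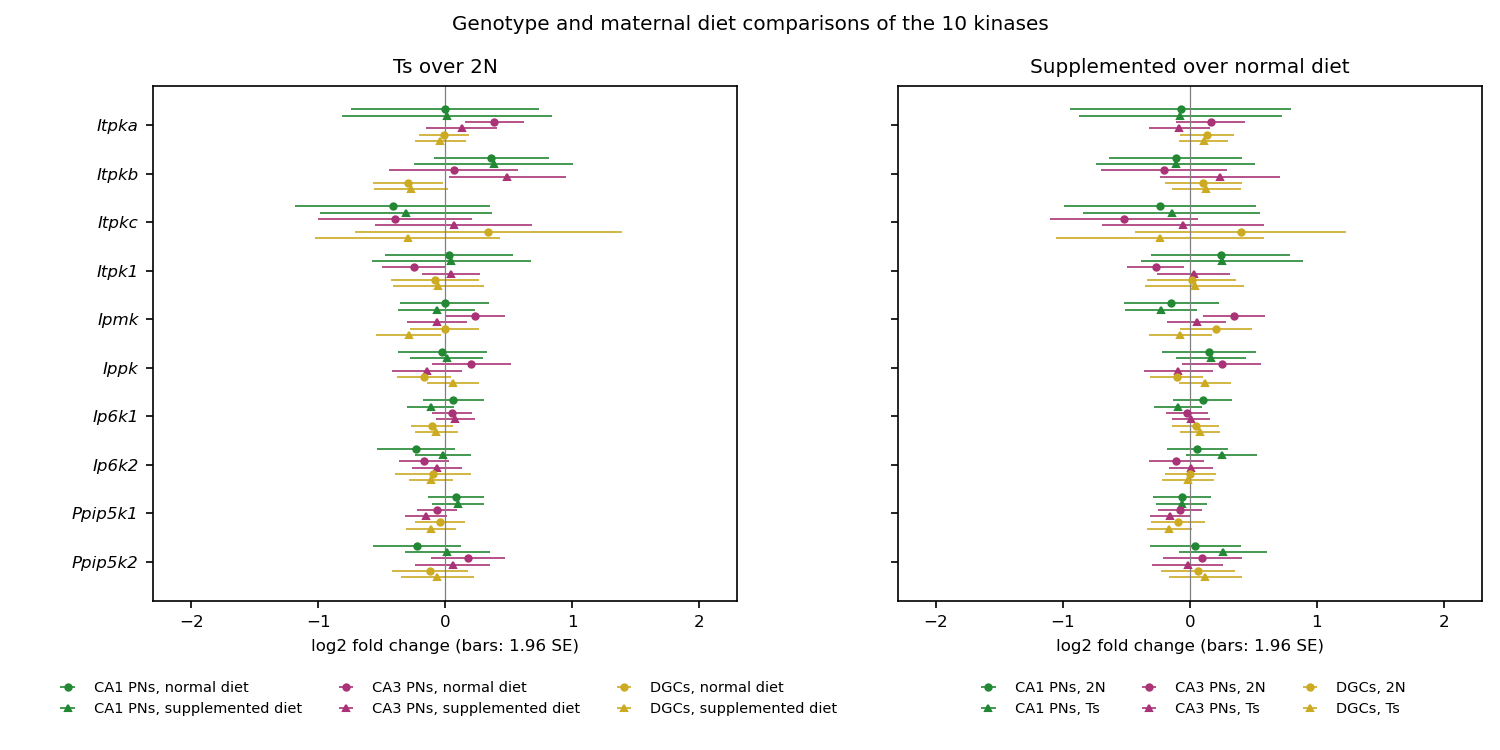
LFC of the 10 kinases between Ts and 2N mice (6 comparisons) and between supplemented and normal diet (6 comparisons), on a log2 scale with bars of approximate 95% intervals. No value passed at an adjusted p under 0.05, and the bars of Itpkc are the widest.

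Other genes of the pathway were called between genotypes in 11 of 251 tests, all higher in Ts mice, and in 0 of 253 tests between diets (8 with an unadjusted p under 0.05, edgeR). Of all genes, 0.00814% to 0.662% were called between genotypes and 0% to 0.00731% between diets, where 2.24% to 5.52% had an unadjusted p under 0.05. Of these calls 10 were of the synaptojanins Synj1 and Synj2, phosphatases that act on inositol lipids and phosphates, and of the inositol transporter Slc5a3, all of which are listed by the study as triplicated. Synj1 was higher in Ts mice by an LFC of 0.69 (CA3 PNs) and 0.60 (DGCs) on the normal diet and 0.64, 0.58 and 0.56 in CA1 PNs, CA3 PNs and DGCs on the supplemented diet (adjusted p from 0.000254 to 4.34e-12, edgeR). In CA1 PNs on the normal diet the LFC of Synj1 was 0.44 (adjusted p = 1.0). There it was 0.58 (adjusted p = 0.0709, edgeR) without the library of mouse 17-154 and 0.58 (adjusted p = 0.00021) without the libraries rich in CA2 markers. Slc5a3 passed in CA3 PNs (LFC 0.63; adjusted p = 0.000368, edgeR) and DGCs (0.59; adjusted p = 0.000957) on the normal diet alone, with an LFC of 0.20 to 0.61 in the other 4 comparisons.

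Synj2 passed in CA3 PNs on both diets (LFC 0.77 and 0.75; adjusted p = 2.43e-06 and 9.99e-06, edgeR) and in DGCs of ChP mice (adjusted p = 0.0445), where it was at 0 to 4.90 CPM in 2N and 3.92 to 8.17 CPM in Ts mice. Without the libraries rich in CA2 markers Synj2 passed in CA1 PNs as well, with an LFC of 0.55 (adjusted p = 0.0261, edgeR) on the normal and 0.56 (adjusted p = 0.00991) on the supplemented diet. The remaining call was Plce1, a phospholipase C outside those segments, at 6.41 to 18.6 CPM in 2N and 14.0 to 34.9 CPM in Ts DGCs of ChP mice (LFC 1.09; adjusted p = 0.00733, edgeR). App, the check of the trisomy, was called in every genotype comparison (LFC 0.47 to 0.73) other than CA1 PNs on the normal diet (0.31; adjusted p = 1.0, edgeR), the comparison that holds the library of mouse 17-154. Without that library the LFC of App was 0.44 (adjusted p = 0.304, edgeR), and without the libraries rich in CA2 markers 0.43 (adjusted p = 0.00469). No kinase was called in this comparison under either omission.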

How the data were processed

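Reads of each library were aligned by the authors with STAR to GRCm39 with Gencode annotation and quantified with RSEM. They deposited expected counts and TPM per gene without further normalization (FastQC 0.11.9, Trimmomatic 0.39 and Picard 2.26.2 are in their processing notes). A deposited count was rounded to a whole number here (0.784% of values were not whole). Symbols came from a Gencode annotation (56310 of 57010 identifiers). Depth was 358355 to 4744036 counts per library.

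The filter kept genes above 0.1 CPM in 10 or more libraries of a fit (all libraries, where a fit had fewer). edgeR 4.0.16 in R 4.3.3 was then run with TMM, estimateDisp, glmQLFit with robust estimation and glmQLFTest (two-sided), with Benjamini-Hochberg adjustment over all genes and a threshold of 0.05. The SE is the absolute LFC over the square root of F. Log2 CPM used a prior count of 2. Scripts were tested on simulated data. The study's covariates were not used, and the labels give no batch. Mouse numbers beginning with 17 are mostly those of ChN mice, and 17-03 is the only ChP mouse among them. The labels do not say what these numbers stand for, and their part in the diet comparisons was not tested. Populations were compared with the mouse as block, since libraries of 1 animal share its number in the labels. Over 9957 genes, 78 pairs from the same mouse had a median residual correlation of 0.088 (0.007 to 0.187), against -0.015 in 480 pairs from other mice. No paired fit was possible between genotypes or diets, which hold different mice.

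Alternatives were DESeq2 1.42.0, limma-voom (limma 3.58.1), library totals, other filters, no block, all groups in 1 fit and omission of single libraries or mice. Single mice were left out of the population and genotype comparisons on the normal diet and the diet comparison of Ts CA1 PNs. In the interaction in CA1 PNs this was done for the Ts ChN mice only. The other comparisons had no such omissions. The omission of CA1 PN libraries with a CA2 list mean over 5 log2 CPM was chosen after seeing the data, as were those of the libraries of mouse 17-154 (CA1 PNs) and 15-140 (CA3 PNs). The members and lists were chosen with earlier results of these data known. The text names all members and Ip6k3, pathway genes called between genotypes or diets, the 3 called pathway genes with the largest LFC between populations in 2N ChN mice, Slc5a3, Synj1, App, and the 5 genes most correlated with the member of widest range. Itpr1 was named after its values were seen.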

Additional observations from a re-analysis of the deposited data

Results flagged for a closer look

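In 10 of the 120 combinations of a kinase and a group, 1 library stood apart from the others of its group by Dixon's criterion, and chance alone gives about 1 in 20. For Itpka in CA1 PNs these were mouse 17-21 (2N ChN) at 53.84 CPM, with the others at 175 to 324 CPM, and mouse 16-357 (Ts ChN) at 136.1 CPM, with the others at 243 to 269 CPM. Both libraries were rich in CA2 markers (7.83 and 7.11 log2 CPM). Itpka also stood out in DGCs, high in mouse 14-125 (2N ChP) at 159.4 CPM, with the others at 99.5 to 121 CPM, and low in mouse 15-198 (Ts ChP) at 77.69 CPM, with the others at 107 to 148 CPM.

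Ipmk was low in mouse 15-199 (Ts ChP) in both CA3 PNs, 40.97 CPM with the others at 56.1 to 70.4 CPM, and DGCs, 35.94 CPM with the others at 47.6 to 58.0 CPM. The DGC library of mouse 16-273 (2N ChP), the shallowest at 358355 counts, had Ipmk at 29.4 CPM, with the others at 59.7 to 81.6 CPM, and Itpkc at 0.0 CPM, with the others at 4.39 to 11.4 CPM. In CA3 PNs of Ts ChP mice, Itpkc was at 2.587 CPM in mouse 15-245, with the others at 6.30 to 8.09 CPM, and Ippk at 23.29 CPM in mouse 17-03, with the others at 32.2 to 38.9 CPM.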

How the results depend on the processing

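In no comparison did the number of kinases called move by more than 1.5 times under any alternative that was run on it, and no called value changed sign. Single mice were not left out of the population or genotype comparisons of ChP mice, so those calls were not put to this check. Without the replicate block, 6, 5, 5 and 6 members were called between CA1 and CA3 PNs in 2N ChN, 2N ChP, Ts ChN and Ts ChP mice, 4, 4, 3 and 4 between CA1 PNs and DGCs, and 6, 7, 5 and 7 between CA3 PNs and DGCs. The block decided the calls of Ip6k2 in Ts ChN mice (without it LFC -0.40, adjusted p = 0.056, against CA3 PNs and -0.33, adjusted p = 0.0533, for CA3 PNs against DGCs) and of Ppip5k2 in Ts ChP mice (CA3 PNs against DGCs -0.39, adjusted p = 0.0297). Of the values of single members between populations, 1095 kept their side of the threshold, 28 passed it and 38 lost it, while 59 values that were not called changed sign. Between genotypes or diets (interactions and differences included) no member passed it, 1690 values were unchanged in this sense and 146 changed sign. Scaling by library totals moved the median LFC of all genes to between -0.27 and -0.23 for CA3 PNs and between -0.18 and -0.12 for CA1 PNs against DGCs. It gained calls against DGCs for Ip6k1 in 5 comparisons (CA3 PNs of 2N ChN -0.31, 2N ChP -0.40 and Ts ChP -0.27, CA1 PNs of 2N ChN -0.31 and Ts ChP -0.31), for Ipmk in 2 (CA1 PNs of 2N ChP -0.48 and Ts ChP -0.32), for Ppip5k2 in 6 (CA1 PNs of all 4 groups -0.50 to -0.38, CA3 PNs of Ts ChN -0.44 and Ts ChP -0.59) and for Ip6k2 in 1 (CA3 PNs of 2N ChN -0.46). It ended those of Itpka between CA1 PNs and DGCs in 3 groups (2N ChN 0.83, 2N ChP 0.59 and Ts ChP 0.59), Ppip5k1 there in Ts ChP mice (0.07), and Ip6k2 (2N ChN -0.30) and Ipmk (Ts ChP -0.28) between CA1 and CA3 PNs. The adjusted p of the gains was at most 0.0434. Itpkc had 42 counts at most.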
